A study of Homo sapiens with 8 samples.

Results

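Genes of the unfolded protein response of the endoplasmic reticulum (ER) and of the ER folding machinery were followed in MOLM-13, a line of human acute myeloid leukemia cells that carries a KMT2A rearrangement. The 40 genes were members of a list of known components of this pathway, matched by gene symbol and not chosen by a threshold on their values. The list was, however, chosen with earlier results of these data known. All 40 were found among the 38551 genes of the count table. Poly(A) RNA was sequenced from 4 libraries of cells kept in the diluent DMSO and from 4 libraries of cells exposed to 100 nM PR-957 (ONX-0914), an inhibitor of the immunoproteasome subunit PSMB8, both for 72 h. All 8 libraries came from this one line, at a single dose and a single time, and the sources used here do not say whether replicates were separate cultures, so p-values measure the spread between these libraries, which may be technical. The comparison asked how the transcripts of ER chaperones, of ER-associated degradation and of the stress sensors ERN1, ATF6 and XBP1 stood after inhibition of the immunoproteasome.

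Secretory and membrane proteins enter the ER through the SEC61 channel and are folded there by chaperones, disulfide isomerases and lectins. When unfolded proteins build up, the sensor IRE1 (gene ERN1) splices the messenger RNA of the transcription factor XBP1, ATF6 is cut by the site proteases S1P and S2P (genes MBTPS1 and MBTPS2) to free a transcription factor, and the kinase PERK (gene EIF2AK3) slows translation and favours that of ATF4. XBP1 and ATF6 bind ER stress elements in the promoters of chaperone genes, while proteins that fail to fold are returned to the cytosol and destroyed by the proteasome, a route called ER-associated degradation (ERAD). Proteasome inhibitors are known to disturb this balance in secretory and blood cancer cells.

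The 39 genes that passed the filter on low counts went both ways with PR-957, and a difference between roles was not tested. Transcripts of the folding factors in the list were mostly higher, led by CRELD2, SDF2L1 and MANF, while most further ER folding genes, described later, did not pass. Sensors and factors were divided, with XBP1, ERN1, MBTPS2 and ATF6 lower and CREB3L2, ATF6B and MBTPS1 higher, as were ERAD genes, with HERPUD1, EDEM1 and SEL1L lower and EDEM3 and DERL2 higher. In all, 19 genes (48.7%) rose and 11 (28.2%) fell at an adjusted p under 0.05 by edgeR's quasi-likelihood test, and 9 did not pass. Over the 13179 genes tested, 23.1% were higher and 23.5% lower, so that 46.6% were called in either direction. The median log2 fold change of the 39 genes was 0.08, beside 0.00 for all genes tested. DMSO replicate 4 stood apart from the other DMSO libraries in its counts over all genes, and without it 18 genes rose and 12 fell. In the bulk RNA sequenced here, less RNA per cell and fewer cells holding a transcript cannot be told apart. The remaining gene, WFS1, which encodes an ER membrane protein, had 1 count in total, in PR-957 replicate 1, and was not tested.

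**Figure D1:**
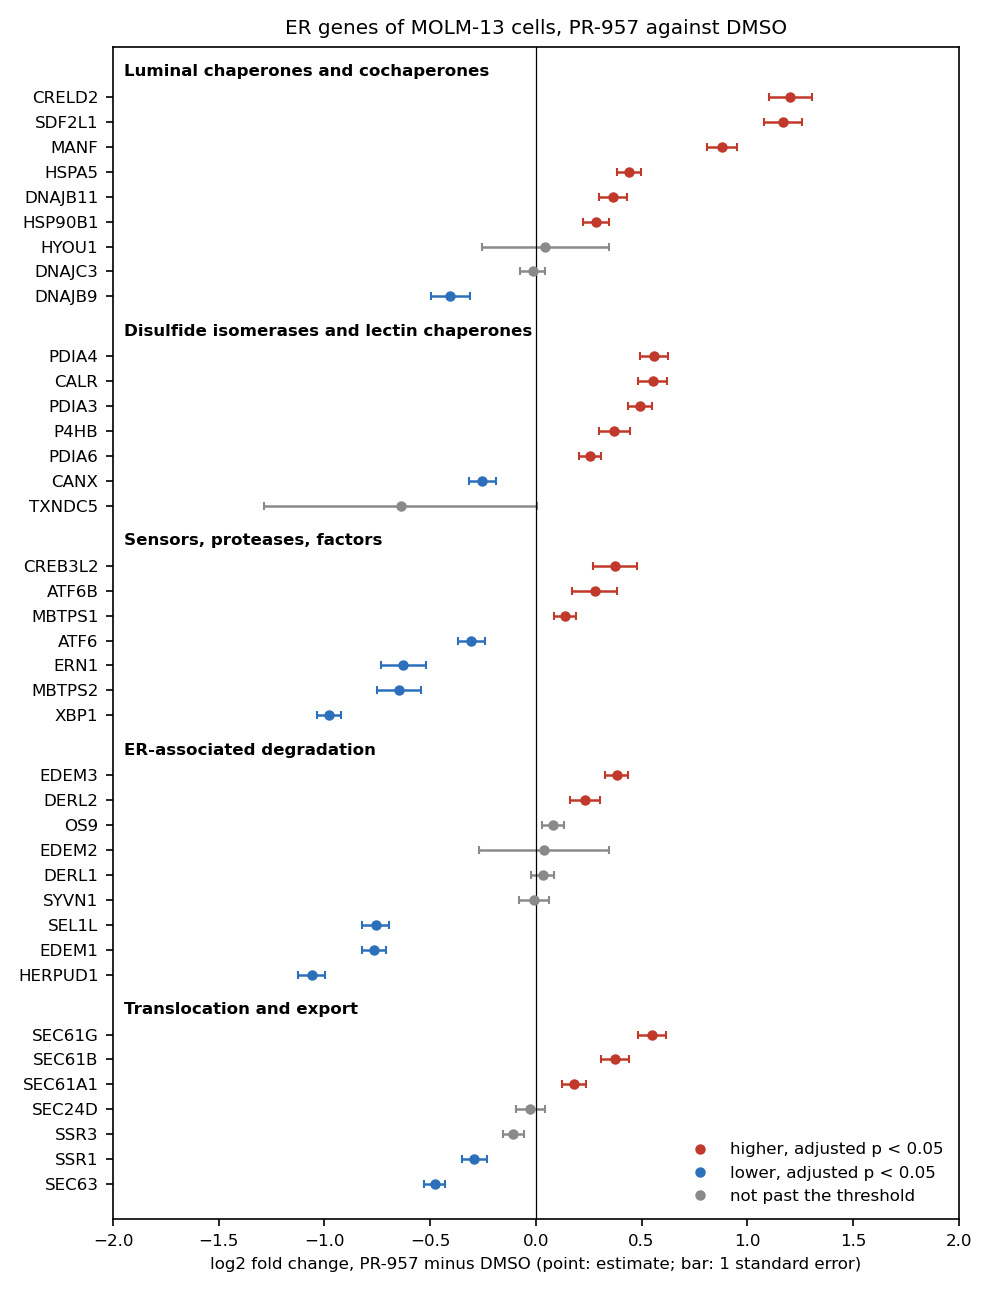
Log2 fold change of each of the 39 genes tested, PR-957 minus DMSO (x axis), with genes in rows grouped by role. Points are estimates, bars are 1 standard error, and colours mark genes with an adjusted p under 0.05. CRELD2 (1.2) lies farthest to the right and HERPUD1 (-1.06) farthest to the left, and the wide bars of HYOU1, EDEM2 and TXNDC5 belong to genes with few counts.

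The promoters of 5 genes are shown because they hold an ER stress element and belong to genes that moved in opposite directions. Each is the stretch of 250 bases before the RefSeq start site (GRCh38.p14), read 5′ to 3′ along the gene, and capitals mark the element. HSPA5 lies at chr9:125241344-125241593 on the minus strand, CRELD2 at chr22:49918384-49918633 on the plus strand, SDF2L1 at chr22:21642052-21642301 on the plus strand, XBP1 at chr22:28800570-28800819 on the minus strand and HERPUD1 at chr16:56931892-56932141 on the plus strand. The first 3 genes rose with PR-957 and the last pair fell.
HSPA5: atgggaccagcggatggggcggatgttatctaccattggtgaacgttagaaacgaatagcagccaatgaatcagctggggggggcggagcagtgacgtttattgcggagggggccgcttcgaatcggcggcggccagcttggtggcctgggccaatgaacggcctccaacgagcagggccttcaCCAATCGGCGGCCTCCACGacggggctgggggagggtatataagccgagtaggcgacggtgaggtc
CRELD2: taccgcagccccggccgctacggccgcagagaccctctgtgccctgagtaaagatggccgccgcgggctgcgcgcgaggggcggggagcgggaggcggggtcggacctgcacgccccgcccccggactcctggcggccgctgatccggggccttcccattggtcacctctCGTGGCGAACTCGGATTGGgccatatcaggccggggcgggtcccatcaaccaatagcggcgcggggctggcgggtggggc
SDF2L1: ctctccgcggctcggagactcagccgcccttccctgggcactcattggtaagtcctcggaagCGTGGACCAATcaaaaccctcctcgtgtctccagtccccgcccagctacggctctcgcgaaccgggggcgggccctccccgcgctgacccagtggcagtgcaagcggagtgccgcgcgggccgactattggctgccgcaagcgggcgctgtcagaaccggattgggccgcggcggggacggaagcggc
XBP1: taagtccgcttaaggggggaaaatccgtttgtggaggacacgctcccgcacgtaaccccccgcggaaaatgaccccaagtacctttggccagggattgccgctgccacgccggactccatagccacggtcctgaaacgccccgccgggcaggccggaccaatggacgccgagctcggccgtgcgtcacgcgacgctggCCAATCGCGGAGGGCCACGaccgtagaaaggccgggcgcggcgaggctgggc
HERPUD1: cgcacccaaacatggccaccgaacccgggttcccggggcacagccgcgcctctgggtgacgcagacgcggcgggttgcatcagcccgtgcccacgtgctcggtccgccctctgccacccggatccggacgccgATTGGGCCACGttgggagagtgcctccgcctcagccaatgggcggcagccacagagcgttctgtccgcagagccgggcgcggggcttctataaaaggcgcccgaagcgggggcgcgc

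The capitals in HSPA5, CRELD2 and XBP1 spell the element ERSE, which is CCAAT, then 9 bases of any kind, then CCACG, and those in SDF2L1 and HERPUD1 spell ERSE-II, which is ATTGG, then 1 base, then CCACG. Both were searched on either strand from 250 bases before to 50 after the start, and in CRELD2 and SDF2L1 they read on the opposite strand. A window was given for 37 of the 40 genes and not for DERL1, PDIA3 and SEC24D. ERSE was found in 6 of the 37 promoters (16.2%), those of HSPA5, HSP90B1, CALR, CANX, CRELD2 and XBP1, against 27 of 35116 promoters of all genes (0.077%) and 18 of 14379 promoters of genes tested here (0.125%). ERSE-II was found in HERPUD1, SDF2L1 and HYOU1 (8.11%), against 0.054% of all promoters. The counts were the same when only the 250 bases before the start were searched. Each listed gene had 1 window, while the wider sets could hold several windows of a gene, so the shares are not strictly alike. Only exact spellings were searched, so a missing match does not show that an element is absent. For CANX, the RefSeq start lay 20283 bases from the 5′ end of the counted gene model. Since these elements helped to define the response in earlier work, their presence in such a list describes the genes and is no result of the treatment.

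Genes with the same element went both ways. Of the 6 genes with ERSE, CRELD2, CALR, HSPA5 and HSP90B1 rose and XBP1 and CANX fell, which is 4 of the 18 higher genes with a window, 2 of the 11 lower genes and 0 of the 8 that did not pass or were not tested. In distance, the ERSE of HSPA5 lay 66 to 48 bases before the start, that of CRELD2 80 to 62 bases and that of XBP1 52 to 34 bases. HSP90B1 held a pair of them, at 194 to 176 and at 89 to 71 bases before the start. Of the genes with ERSE-II, SDF2L1 rose, HERPUD1 fell and HYOU1 did not pass the test. The 5 bases CCACG, which are part of both elements, were present in 25 of the 37 promoters (67.6%), 38.1% of all promoters and 47.9% of those of genes tested. In related lists they were present in 32 of 42 promoters of further ER genes, 10 of 15 of the PERK and ATF4 arm and 8 of 16 of cytosolic heat shock chaperones.

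A pair of further motifs was rare in the list. The ATF4-type motif TGATGNAA was found in the promoter of HERPUD1 alone, 176 to 169 bases before the start on the opposite strand, and in 3.62% of all promoters. TGACGTGG, a motif bound by XBP1 and ATF6, was found in HYOU1 alone within the list, in 7 of the 42 promoters given for the further ER genes described later and in 0.729% of all promoters. In HYOU1 it overlapped an ERSE-II, at the part that reads CCACG on the opposite strand.

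**Figure D2:**
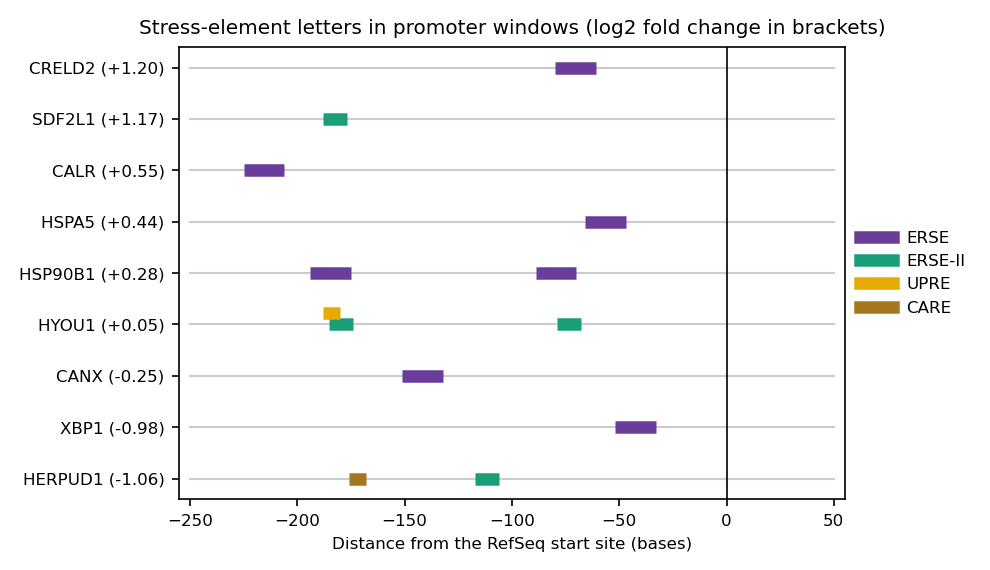
Position of the motif letters in the promoter windows of the 9 genes with an ERSE or ERSE-II, in bases from the RefSeq start site (x axis, start at 0), with each gene's log2 fold change, PR-957 minus DMSO, in brackets and genes ordered by it. ERSE is present at both ends of the order, in CRELD2 (1.2) at the top and in XBP1 (-0.98) near the bottom.

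Of the 9 luminal chaperones and cochaperones, 6 rose, DNAJB9 fell, and DNAJC3 and HYOU1 did not pass. Their median log2 fold change was 0.36, and their summed level went from 1399 ± 110 CPM (counts scaled to a common library size with TMM factors, SD, n = 4) in DMSO to 1784 ± 29.0 CPM with PR-957. For comparison, 23.1% of all genes tested rose and 23.5% fell. HSPA5 (hg38 chr9:125234853-125241343, minus strand) encodes BiP, the main ER chaperone of the HSP70 family and the partner that keeps the sensors silent. Its level was 377, 337, 349 and 318 CPM in DMSO replicates 1 to 4 and 477, 451, 479 and 465 CPM in PR-957 replicates 1 to 4. The groups did not overlap, and the rise was 0.44 on the log2 scale (standard error, SE, 0.06, adjusted p = 4.5e-06), or 1.36-fold.

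The 3 largest rises of the list followed in this group. CRELD2, a secreted ER stress protein with cysteine-rich repeats, was measured at 10.6, 8.97, 10.7 and 8.96 CPM in the DMSO libraries and at 22.4, 19.8, 21.6 and 26.3 CPM in the PR-957 libraries. All PR-957 values lay above all DMSO values, and the log2 fold change was 1.2 (standard error 0.10, adjusted p = 1.81e-08). For SDF2L1, which works with the BiP cochaperone DNAJB11, the DMSO libraries gave 24.1, 21.3, 21.1 and 16.9 CPM and the PR-957 libraries 51.0, 45.2, 47.7 and 43.0 CPM, which is a log2 fold change of 1.17 (standard error 0.09, adjusted p = 7.83e-09). MANF, a BiP-binding protein also known as a neurotrophic factor, stood at 39.0, 34.9, 40.2 and 34.6 CPM without and at 70.4, 60.7, 73.3 and 68.7 CPM with PR-957, which is a log2 fold change of 0.88 (standard error 0.07, adjusted p = 8.17e-09). CRELD2, SDF2L1 and MANF were the 3 genes of the list that rose at least 1.5-fold, a mark passed upward by 6.80% of all genes tested.

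The other chaperones moved less. DNAJB11, a cochaperone of BiP, rose by 0.36 on the log2 scale (adjusted p = 0.000132), and HSP90B1, the ER member of the HSP90 family, rose by 0.28 (adjusted p = 0.000806), from 818 ± 71.7 to 996 ± 10.8 CPM. DNAJB9, a cochaperone that holds IRE1 inactive through BiP, fell by 0.40 on the log2 scale (SE 0.09, adjusted p = 0.00153), from 16.7 ± 1.5 to 12.6 ± 0.703 CPM, without overlap between the groups. DNAJC3, a cochaperone that is also an inhibitor of PERK, gave -0.01 on the log2 scale (adjusted p = 0.858). HYOU1, a nucleotide exchange factor of BiP, was listed at 1.53 ± 0.725 and 1.57 ± 0.285 CPM. Its gene model also has a placement on an alternate contig, and reads that map to both places may not have been counted, so its level is uncertain.

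DMSO replicate 4 gave the lowest of the 4 DMSO values for each of the 9 chaperones and for 21 of the 39 genes tested. Without this library, 6 chaperones were still higher and 1 lower, with a median log2 fold change of 0.30 in place of 0.36, and HSPA5 gave 0.40 (adjusted p = 2.16e-06).

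Disulfide isomerases and lectin chaperones were the group with the largest difference in summed level in CPM, from 2694 ± 135 to 3664 ± 75 CPM. Most of both sums came from CALR (means of 1064 and 1559 CPM) and P4HB (888 and 1149 CPM). Of the 7 genes, 5 rose, CANX fell and TXNDC5 did not pass, with a median log2 fold change of 0.37. Among all genes tested, 23.1% rose and 23.5% fell. CALR (chr19:12938600-12944490, plus strand) encodes calreticulin, a soluble lectin that retains glycoproteins until they are folded. It was measured at 1168, 1109, 1073 and 904 CPM in DMSO and at 1620.4, 1601, 1517 and 1498 CPM with PR-957, which is a log2 fold change of 0.55 (standard error 0.07, adjusted p = 2.65e-06). The lowest PR-957 value lay above the highest DMSO value. PDIA4, a disulfide isomerase, went from 91.8, 85.2, 87.8 and 72.4 CPM to 131, 119, 125 and 121 CPM, which is a log2 fold change of 0.56 (standard error 0.07, adjusted p = 1.39e-06). PDIA3 (ERp57), the isomerase that binds calreticulin and calnexin, went from 341, 309.9, 332 and 297 CPM to 465, 433, 452 and 452 CPM, which is a log2 fold change of 0.49 (standard error 0.06, adjusted p = 7.95e-07).

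P4HB, the classical protein disulfide isomerase, rose by 0.37 on the log2 scale (adjusted p = 0.00032) and PDIA6 by 0.26 (adjusted p = 0.000564). CANX, the membrane-bound counterpart of calreticulin, fell by 0.25 on the log2 scale (SE 0.06, adjusted p = 0.00303), from 62.5 ± 4.54 to 52.4 ± 2.72 CPM. Calreticulin and calnexin transcripts, whose products share their lectin function, thus carried opposite signs. CANX has 1 further placement on an alternate contig, so its level is uncertain, and its fall did not pass in replicates 3 and 4 alone (adjusted p = 0.107). TXNDC5, an isomerase with thioredoxin domains, was near the limit of counting at 1.00, 1.39, 0.241 and 0.262 CPM in DMSO and 0.111, 0.209, 0.731 and 0.731 CPM with PR-957. Replicates 1 and 2 and replicates 3 and 4 went opposite ways, with log2 fold changes of -2.85 (adjusted p = 0.000133) and 1.5 (adjusted p = 0.054). Its exon bases are shared to 83.2% with the readthrough gene BLOC1S5-TXNDC5 on the same strand, so its counts are uncertain.

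**Figure D3:**
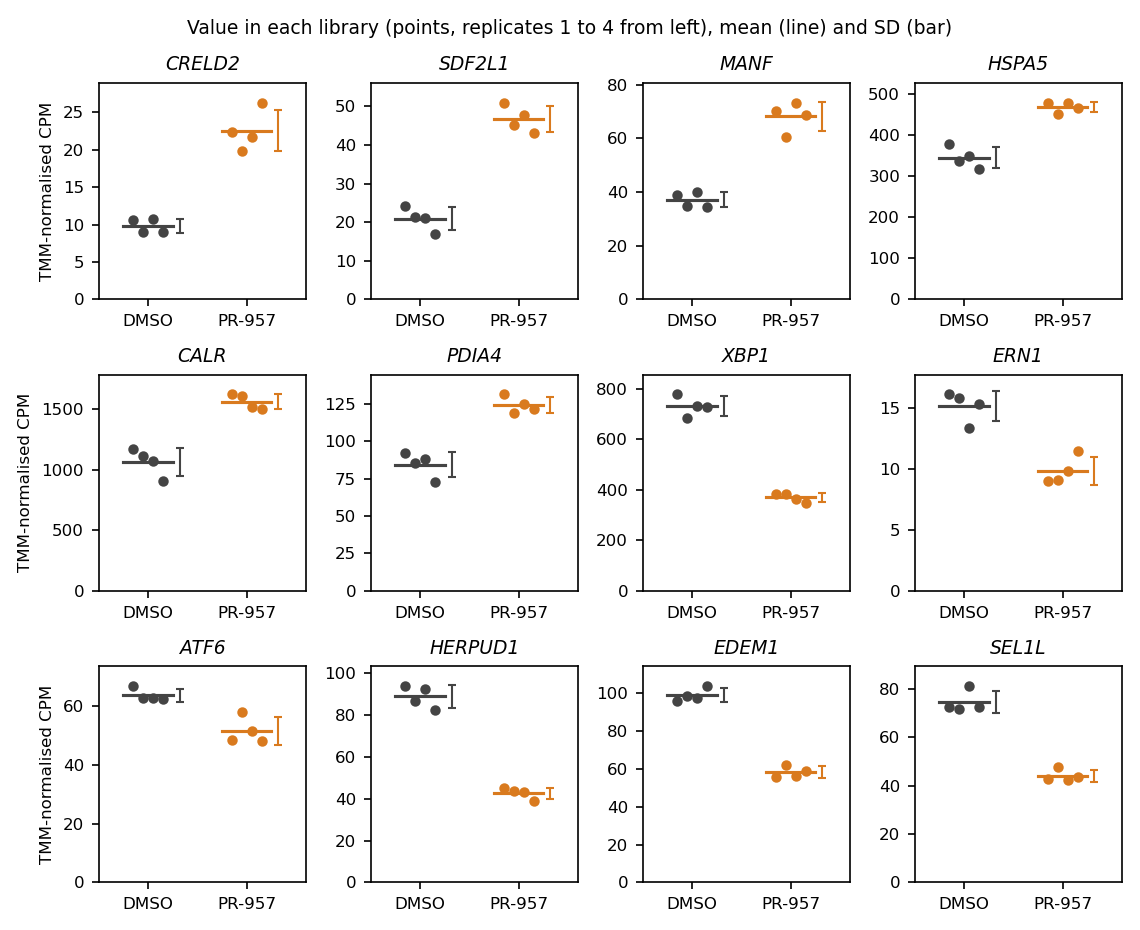
TMM-normalised CPM (y axis, starting at 0) of 12 genes in each library, with DMSO and PR-957 side by side. Points are replicates 1 to 4 from left to right, lines are means and bars are SD (n = 4). In each panel the groups do not overlap, with PR-957 above DMSO for CRELD2, SDF2L1, MANF, HSPA5, CALR and PDIA4 and below it for XBP1, ERN1, ATF6, HERPUD1, EDEM1 and SEL1L.

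Among sensors, site proteases and transcription factors, all 7 genes tested were called, 4 lower and 3 higher, with a median log2 fold change of -0.30. Over all genes tested, 46.6% were called, 23.5% lower and 23.1% higher. The summed level of this group went from 955 ± 42.8 to 595 ± 14.6 CPM, most of it XBP1. XBP1 (chr22:28794560-28800572, minus strand) was measured at 779, 683, 733 and 727 CPM in DMSO and at 385, 384, 365 and 349 CPM with PR-957. The groups were far apart, and the log2 fold change was -0.98 (standard error 0.06, adjusted p = 9.34e-11), or 1.97-fold lower. Counts per gene do not separate the spliced from the unspliced XBP1 message, so the share that encodes the active factor was not measured. The promoter of XBP1 printed above holds the same element as that of HSPA5.

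Transcripts of the sensors ERN1 and ATF6 were lower, while EIF2AK3, the gene of the sensor PERK, did not pass (log2 fold change -0.17, adjusted p = 0.144). ERN1 (chr17:64039142-64132469, minus strand), the gene of IRE1, stood at 16.1, 15.8, 13.3 and 15.3 CPM in DMSO and at 8.97, 9.08, 9.77 and 11.4 CPM with PR-957, which is a log2 fold change of -0.63 (standard error 0.11, adjusted p = 7.69e-05). No PR-957 library reached the lowest DMSO value. ATF6 (chr1:161766320-161964070, plus strand) was measured at 67.1, 62.9, 62.9 and 62.4 CPM and at 48.4, 58.3, 51.8 and 48.1 CPM in the same order, which is a log2 fold change of -0.30 (standard error 0.07, adjusted p = 0.000814). MBTPS2, the site-2 protease that completes the cleavage of ATF6, fell from 14.9, 14.4, 15.2 and 16.8 CPM to 8.58, 10.5, 11.1 and 8.89 CPM, which is a log2 fold change of -0.65 (standard error 0.11, adjusted p = 5.43e-05). ATF6, ERN1, MBTPS2 and XBP1 thus fell together, and each of the 4 passed in all 19 alternative fits, which used other tests, scalings, filters or batch terms or left libraries out.

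The 3 genes of this group that rose had smaller fold changes. CREB3L2, an ER-anchored transcription factor related to ATF6, rose by 0.38 on the log2 scale (adjusted p = 0.00973). Its DMSO libraries gave 41.0, 38.4, 50.8 and 49.8 CPM and its PR-957 libraries 50.9, 53.9, 64.4 and 64.3 CPM, so that replicates 3 and 4 were higher than replicates 1 and 2 in both groups, and the lowest PR-957 value was only just above the highest DMSO value. MBTPS1, the site-1 protease, gave a change of 0.14 on the log2 scale (adjusted p = 0.0343) and ATF6B, the paralog of ATF6, 0.28 (adjusted p = 0.0357). Neither held firmly, since MBTPS1 was called in 10 and ATF6B in 7 of the 19 alternative fits, and ATF6B lost its call whenever any 1 library was left out. Without PR-957 replicate 4, for instance, ATF6B reached an adjusted p of 0.0852. ATF6B also has 3 further placements on alternate contigs, so its level is uncertain.

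In ER-associated degradation, 3 genes fell at least 1.5-fold. Of the 9 genes of this group, HERPUD1, EDEM1 and SEL1L fell, EDEM3 and DERL2 rose, and 4 did not pass, with a median log2 fold change of 0.03. That is 33.3% lower and 22.2% higher, beside 23.5% and 23.1% of all genes tested. HERPUD1 (chr16:56932142-56944864, plus strand) encodes a membrane protein that assembles the degradation complex. It went from 94.1, 86.6, 92.7 and 82.6 CPM to 45.1, 43.5, 43.1 and 38.9 CPM, which is a log2 fold change of -1.06 (standard error 0.06, adjusted p = 1.28e-10), and was the gene of the list with the largest fall. EDEM1, a mannosidase-like protein that marks glycoproteins for disposal, was measured at 95.8, 98.8, 97.7 and 104 CPM in DMSO and at 55.5, 62.4, 56.3 and 58.9 CPM with PR-957, which is a log2 fold change of -0.77 (standard error 0.06, adjusted p = 2.61e-09). SEL1L, the adaptor of the ubiquitin ligase SYVN1, stood at 72.7, 71.9, 81.4 and 72.6 CPM in DMSO and at 42.7, 47.9, 42.2 and 43.6 CPM with PR-957, which is a log2 fold change of -0.76 (standard error 0.06, adjusted p = 1.22e-08). The PR-957 values of all 3 lay well under the DMSO values.

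Partners and paralogs of these 3 genes gave other values, though the differences between genes were not tested. SYVN1 (HRD1), the ligase that SEL1L holds, gave 33.3 ± 2.54 CPM in DMSO and 33.1 ± 1.77 CPM with PR-957, which is a log2 fold change of -0.01 (standard error 0.07, adjusted p = 0.923). EDEM3, a paralog of EDEM1 with the same role in mannose trimming, rose by 0.38 on the log2 scale (SE 0.05, adjusted p = 1.17e-05), from 127 ± 5.01 to 165 ± 7.74 CPM. EDEM2 was listed near 1 CPM in both groups (log2 fold change 0.04, adjusted p = 0.931) and shares 80.9% of its exon bases with the readthrough gene MMP24-AS1-EDEM2 on the same strand, so its counts are uncertain. DERL2, a component of the exit channel, rose by 0.23 (adjusted p = 0.0102), a call that did not pass in replicates 1 and 2 alone (adjusted p = 0.0609) or in replicates 3 and 4 alone (adjusted p = 0.095). Its paralog DERL1 (0.03, adjusted p = 0.644) and the lectin OS9 (0.08, adjusted p = 0.216) did not pass.

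With these, 6 genes of the list were at least 1.5-fold lower, namely HERPUD1, XBP1, EDEM1, SEL1L, MBTPS2 and ERN1. Over all genes tested, 7.00% passed that mark downward.

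Translocation and export genes were divided as well, with 3 of 7 higher, 2 lower and 2 that did not pass. These shares, 42.9% higher and 28.6% lower, stood beside 23.1% and 23.5% of all genes tested. The 3 subunits of the SEC61 channel rose. The small subunit SEC61G was measured at 85.2, 75.1, 79.0 and 90.9 CPM in DMSO and at 129, 112, 119.8 and 122 CPM with PR-957, which is a log2 fold change of 0.55 (standard error 0.06, adjusted p = 1.19e-06). SEC61B, also a small subunit, went from 81.5, 80.5, 80.1 and 71.0 CPM to 114, 98.9, 98.2 and 94.8 CPM, which is a log2 fold change of 0.38 (standard error 0.07, adjusted p = 0.000107). The pore-forming subunit SEC61A1 rose by 0.18 (SE 0.06, adjusted p = 0.0148), from 209.9 ± 11.5 to 238 ± 13 CPM, and its call was lost without PR-957 replicate 2 (adjusted p = 0.0548). Whether these 3 fold changes differ was not tested.

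SEC63, the channel partner that recruits BiP through its J domain, moved the other way. Its DMSO libraries gave 350.1, 334, 329.6 and 322 CPM and its PR-957 libraries 241, 242, 239 and 236 CPM, which is a log2 fold change of -0.48 (standard error 0.05, adjusted p = 2.92e-07). The PR-957 libraries lay close together and all under the DMSO range. SSR1, a subunit of the translocon-associated protein complex, fell by 0.29 on the log2 scale (adjusted p = 0.000552), from 289 ± 19.8 to 236 ± 13.5 CPM. For SSR3, of the same complex, the groups did not overlap at 182 ± 7.64 and 169 ± 1.44 CPM, but the test did not pass (log2 fold change -0.11, adjusted p = 0.0953). SEC24D, a cargo adaptor of the COPII coat that buds vesicles from the ER, gave -0.03 (adjusted p = 0.782).

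Non-overlap of the groups was seen for 31 of the 39 genes, of which SSR3 was the 1 that the test did not call. Over all genes tested, 42.5% had no overlap. Of the 30 genes called, 24 were called in each of the 19 alternative fits. The 6 exceptions were ATF6B, MBTPS1, SEC61A1, DERL2, DNAJB9 and CANX, all with changes under 1.5-fold.

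**Figure D4:**
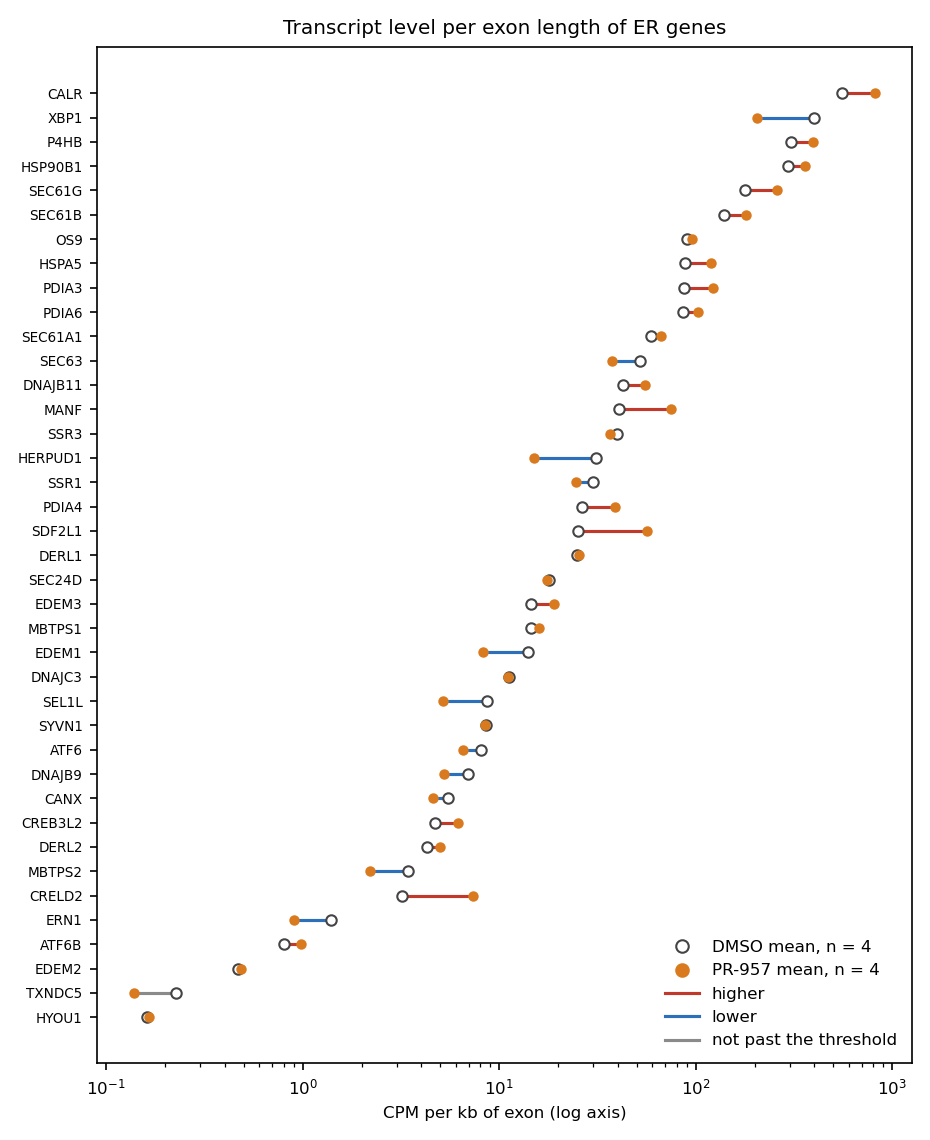
Transcript level per exon length of the 39 genes tested (x axis, CPM per kb of exon, log axis), ordered by their DMSO mean. Open circles are DMSO means, filled circles PR-957 means (n = 4 each), and line colours mark the direction of calls. CALR leads at 557 and 816 CPM per kb, and the line of XBP1 runs from 401 down to 204 CPM per kb.

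Levels per exon length compare genes with each other and ranged over several orders of magnitude. In DMSO the order was led by CALR at 557 ± 59.2 CPM per kb, XBP1 at 401 ± 21.5, P4HB at 306 ± 25.8, HSP90B1 at 294 ± 25.8 and SEC61G at 177 ± 14.9. P4HB and HSP90B1 did not differ beyond their spread, nor did OS9, HSPA5, PDIA3 and PDIA6, which ranked 7 to 10 at 85.6 to 90.1 CPM per kb. With PR-957, XBP1 went from rank 2 to rank 5 at 204 ± 9.50 CPM per kb, under P4HB (396), HSP90B1 (358) and SEC61G (259). HERPUD1 went from rank 16 to rank 23, at 31.2 and 14.9 CPM per kb, and SDF2L1 from rank 19 to rank 13, at 25.3 and 56.6 CPM per kb. ERN1, at 1.39 and 0.900 CPM per kb, was among the least abundant in both groups. Exon lengths were those of the union of exons in the deposited gene models, which understates genes with long alternative exons or placements on alternate contigs.

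Further genes linked to the ER, chosen with earlier results of these data known, were read beside the list. Of 52 further ER genes in folding, degradation and transport, 49 were tested, of which 15 (30.6%) rose, 4 (8.16%) fell and 30 did not pass, with a median log2 fold change of 0.07. Over all genes tested, 23.1% rose and 23.5% fell. UFD1, a cofactor of the ATPase VCP that extracts ERAD substrates, rose most, by 0.66 (SE 0.07, adjusted p = 2.1e-07), from 35.1 ± 2.64 to 55.4 ± 2.92 CPM. It was followed by CKAP4, an ER sheet protein, at 0.62 (SE 0.13, adjusted p = 0.00235). The largest falls were those of DNAJC1, an ER membrane cochaperone of BiP, at -1.15 (SE 0.07, adjusted p = 6.15e-11), and of UBE2J1, a ubiquitin-conjugating enzyme of ERAD, at -0.41 (SE 0.05, adjusted p = 3.4e-06). Among the further folding genes tested, PPIB and MOGS rose and DNAJC1 and DNAJC10 fell. SIL1, SDF2, ERP29, ERP44, PDIA5, TMX1, TXNDC11, ERO1A, ERO1B, FKBP14, UGGT1 and GANAB did not pass.

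The list of the PERK and ATF4 arm, written with its direction in these data already known, stood lower with PR-957. Of its 16 genes, 15 were tested and 14 (93.3%) fell, beside 23.5% of all genes tested. EIF2AK3, the gene of PERK, did not pass (log2 fold change -0.17, adjusted p = 0.144). The fall was thus that of ATF4 and of genes listed with it, while PERK activity was not measured. Which kinase acted on ATF4 was not tested. The median log2 fold change was -2.01. STC2, a secreted glycoprotein gene under ATF4, went from 56.0 ± 2.99 to 3.43 ± 0.657 CPM, which is a log2 fold change of -4.01 (standard error 0.10, adjusted p = 5.24e-16). CHAC1, a glutathione-degrading enzyme gene induced by ATF4, gave -3.55 (SE 0.12, adjusted p = 2.13e-14). The motif TGATGNAA was present in the promoters of ATF3, ASNS and CHAC1, 3 of the 15 promoters of this list with a window, and none of the 15 held an ERSE or ERSE-II.

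Cytosolic heat shock chaperones, a list also chosen with earlier results of these data known, stood higher. Of 18 genes, 17 were tested and 14 (82.4%) rose, beside 23.1% of all genes tested. By edgeR 0 fell (0 also at an unadjusted p under 0.05 and by DESeq2 and limma-voom), beside 23.5% of all genes tested. The other 3 did not pass, and the median log2 fold change was 0.63. HSP90AA1, the inducible cytosolic HSP90, rose from 1096 ± 124 to 2378 ± 76.5 CPM, which is a log2 fold change of 1.12 (standard error 0.07, adjusted p = 4.17e-10). The other cytosolic HSP90, HSP90AB1, gave 0.26 (adjusted p = 0.00133), and the ER relative HSP90B1 gave 0.28. HSPA1B, an inducible HSP70 gene, gave 1.21 (SE 0.17, adjusted p = 1.18e-05), but it can share reads with its near-identical copy HSPA1A and is uncertain.

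**Figure D5:**
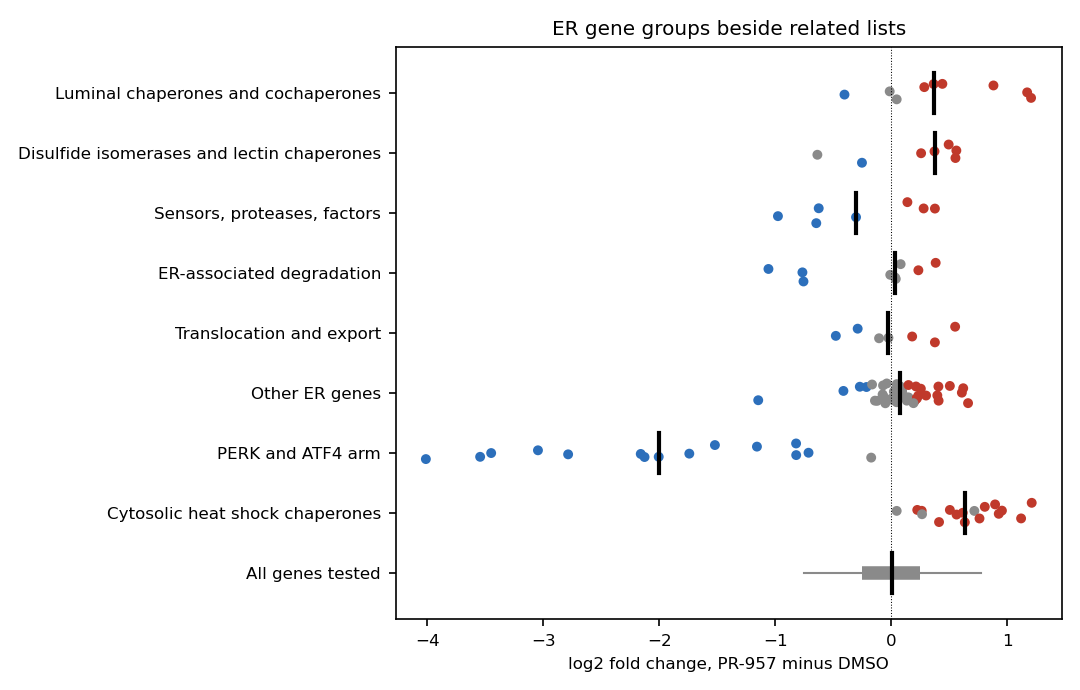
Log2 fold change, PR-957 minus DMSO (x axis), of the genes tested in each role group and related list, with 1 point per gene and black bars at medians. Red, blue and grey points are genes higher, lower and not past an adjusted p of 0.05, and the bottom row gives the median, the quartiles (thick) and the 5th to 95th percentile (thin) of all genes tested. Chaperones (0.36) and isomerases and lectins (0.37) have medians above 0, sensors (-0.30) lie under it, and the PERK and ATF4 arm (-2.01) lies far to the left.

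Facts of the whole libraries moved with the treatment and are given beside these results. The share of counts from mitochondrial genes was 1.94% to 2.75% in DMSO and 4.15% to 5.24% with PR-957, and TMM factors were 0.958 to 0.992 and 1.00 to 1.05 (exact permutation test, two-sided p = 0.0286 each, the smallest that 4 against 4 libraries allow, adjusted p = 0.0429 over 3 measures). Total counts, 16675036 to 23111223 per library, did not separate the groups (p = 0.914 by the same exact test). All 9 myeloid markers passed the filter, with a summed level of 1625 to 1701 CPM in DMSO and 2325 to 2574 CPM with PR-957. By edgeR, SPI1, LYZ and MPO rose, FLT3 and PTPRC fell, and CD33, CEBPA, ITGAM and CSF1R did not pass the test. LYZ rose from 153 ± 16.2 to 820.0 ± 104 CPM and MPO from 175 ± 16.2 to 506 ± 34.9 CPM, while FLT3 fell from 340.4 ± 7.24 to 173 ± 19.7 CPM and PTPRC from 207 ± 23.1 to 131 ± 9.81 CPM (adjusted p of 1.43e-06 or less each). Of 6 T and B cell markers 2 passed, at 17.1 to 20.3 and 13.9 to 18.4 CPM summed over the list. Of 4 erythroid markers none passed, with sums of 0 to 0.36 and 0.31 to 0.62 CPM, and of 6 epithelial and stromal markers 3 passed, at 45.9 to 54.3 and 30.9 to 41.5 CPM. The part of any of these in the results was not tested. Scaling by library totals alone moved the share of higher genes among all calls from 49.6% to 63.3%, and gave 20 higher and 11 lower genes in the ER list.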

How the data were processed

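RNA from 8 MOLM-13 libraries (4 DMSO, 4 PR-957, grouped by the sample titles) was analysed. The authors deposited raw counts of fragments per gene, with no normalization. Per the submitters' processing notes and the file headers, reads were trimmed with Trimmomatic 0.39, aligned to hg38 with STAR 2.7.10a and counted against NCBI RefSeq gene models with featureCounts 2.0.1, with both ends mapped and on the reverse strand. For strand marking by the library kit, nothing was given in the sources used here. The header named 16 libraries, of which the table held 8. The other 8 were not analysed here, and 6 empty rows were dropped. The authors' own comparison (mean counts, log2 fold changes, standard errors and p-values from DESeq2) was not used.

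Counts were normalised with TMM factors (trimmed mean of M-values), filtered with filterByExpr (13179 genes, 99.9% of counts) and compared in a single fit of all libraries with edgeR 4.0.16 in R 4.3.3 (glmQLFit, robust, and glmQLFTest, two-sided, no covariate), with Benjamini-Hochberg adjustment over all genes tested and a threshold of 0.05. SE is the absolute log2 fold change over the square root of F. A count of 0 was read as at most 3 counts, 0.130 to 0.180 CPM by library, for counting error only. Chi-square per gene between replicates was 3.32 or more, so all were kept, and was 10.2 to 15.3 between DMSO replicate 4 and the other DMSO libraries.

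Alternatives were DESeq2 1.42.0, limma-voom (limma 3.58.1), RLE, upper-quartile and library-total scaling, no filter, at least 1 CPM in at least 4 libraries, a replicate block, a 2-level term for replicates 1 and 2 against 3 and 4, each of these pairs alone, each library left out in turn and, for counts of the ER list, glmTreat against 1.2-fold. No gene set test was run, and the planned description of protein C termini was not run.

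The members and all lists were chosen with earlier results of these data known. Values per library were given for HSPA5, ERN1, XBP1 and ATF6 and for the 3 largest changes past the threshold in each role group, and up to 2 genes per direction were named from each related list (average log2 CPM of at least 1). The values per library of CREB3L2 and TXNDC5 and the values of EIF2AK3, HSP90AB1, LYZ, MPO, FLT3 and PTPRC were chosen after they were seen. So were the further ER folding genes named without values.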

Additional observations from a re-analysis of the deposited data

Results flagged for a closer look

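In 5 of the 100 groups of 4 libraries examined, 1 library lay far from the other 3, as about 1 in 20 groups would by chance. The groups were the list genes tested, the genes taken by rule from related lists and the library measures, each in DMSO or PR-957. ATF6 was 67.1 CPM in DMSO replicate 1, against 62.4 to 62.9 CPM in the other DMSO libraries. SEL1L was 81.4 CPM in DMSO replicate 3, against 71.9 to 72.7 CPM. SEC61B was 71.0 CPM in DMSO replicate 4, against 80.1 to 81.5 CPM. SEC24D was 87.4 CPM in DMSO replicate 2, against 76.6 to 77.1 CPM. UFD1, a cofactor of VCP in ER-associated degradation, was 59.7 CPM in PR-957 replicate 1, against 53.7 to 54.3 CPM in the other PR-957 libraries. ATF6, SEL1L, SEC61B and UFD1 were called in all 19 alternative fits, those without the library named included, and SEC24D was called in none.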

How the results depend on the processing

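The 19 higher and 11 lower ER genes became 9 and 7 under glmTreat against 1.2-fold, and 16 to 18 and 11 to 12 when 1 library was left out. Of 534 group counts and medians compared, 40 moved. The median log2 fold change of the ER list (0.08) was 0.138 with limma-voom, 0.1575 with library totals alone, 0.111 with at least 1 CPM in at least 4 libraries, 0.1264 in replicates 1 and 2, 0.2126 in replicates 3 and 4, and 0.0788 to 0.1967 with 1 library left out. In replicates 1 and 2 alone, 2 isomerase and lectin genes were lower, 1 sensor gene and 1 ERAD gene were higher, and the ERAD median was -0.0201. In replicates 3 and 4 alone, 0 chaperones and 0 isomerase and lectin genes were lower, 1 sensor gene and 1 ERAD gene were higher, and medians were 0.5213 for isomerases and lectins, -0.0039 for ERAD and 0.7208 for heat shock genes. Sensor genes higher numbered 1 with no filter and 1 to 2 with 1 library left out. With library totals alone, medians were 0.11 for ERAD, 0.0509 for translocation and 0.1505 for other ER genes, of which 24 were higher and 2 lower. With 1 library left out, medians ran from -0.0587 to 0.0417 for ERAD and from -2.1393 to -1.8568 for the PERK and ATF4 arm. The causes were not tested.

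Among single genes, 23 values changed sign, all of genes that were not called. HYOU1 gave -0.2116 and EDEM2 -0.1211 in replicates 1 and 2, and -0.1731 to 0.4158 and -0.1046 to 0.3346 with 1 library left out. DNAJC3 gave 0.064 with library totals, 0.0542 in replicates 3 and 4 and -0.0518 to 0.0128 with 1 library left out. SYVN1 gave 0.0005 with upper-quartile scaling, 0.0673 with library totals and -0.0587 to 0.0264 with 1 library left out. SEC24D gave 0.0509 with library totals, 0.0274 in replicates 1 and 2 and -0.0676 to 0.0275 with 1 library left out. TXNDC5 gave 1.5007 and DERL1 -0.0203 in replicates 3 and 4. A further 27 values lost the call and 3 gained it, among them OS9 with library totals (adjusted p = 0.0109) and SSR3 without DMSO replicate 4 (adjusted p = 0.0207).

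With the replicate number as a block, 6913 genes were called in place of 6143, and the ER list kept 19 higher and 11 lower. Deviations from the group means correlated at 0.151, 0.213, 0.0985 and 0.198 between libraries of the same number, and each DMSO library correlated best with its own number, while PR-957 replicate 3 correlated better with DMSO replicate 4 (0.105) than with replicate 3. As 1 pair was under 0.1 and no label ties the numbers to shared cultures, the numbers were not taken as pairing.

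Low counts left wide standard errors for HYOU1 (0.30), EDEM2 (0.31) and TXNDC5 (0.65), and WFS1 was not tested.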
